A study of Mus musculus with 41 samples.

Results

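The comparison set brainstem tumors that express histone H3.3 K27M against neurosphere cultures with the same knock-in allele. It held 23 of the 41 RNA-seq libraries of the series, namely 20 K27M tumors and 3 K27M hindbrain neurosphere cultures, chosen by their labelled genotype, tissue and region. The tumors were snap-frozen brainstem tumor tissue from mice with Nestin-creERT2, H3f3a LSL-K27M-Tag/+, LSL-PDGFRαV544ins and Trp53 flox/flox, 11 of them female and 9 male. The cultures came from the hindbrain of E15.5 embryos (days of gestation) with Nestin-cre and H3f3a LSL-K27M-Tag/+, were grown under neural precursor conditions and were all female. Both groups thus carry the K27M allele, in which lysine 27 of a tagged H3.3 is a methionine and a loxP-flanked stop cassette (LSL) ties its expression to Cre recombinase.

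The Cre driver, the activated PDGF receptor, the deletion of Trp53, tissue against culture, and age all change together between the groups, so their parts cannot be told apart. A tumor sample also holds cells of the host mouse. The labels do not say that the 3 cultures came from separate animals, so the p-values measure the spread between libraries. A further 9 WT-Tag tumors (the same alleles as the K27M tumors, with tagged wild-type H3.3), 3 WT-Tag hindbrain cultures (Nestin-cre with the WT-Tag allele) and 3 K27M forebrain cultures (the alleles of the hindbrain cultures) were used where named. These cultures came from E15.5 embryos too. By the labels, the WT-Tag tumors and the WT-Tag cultures were of both sexes, and the forebrain cultures were all female.

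As background, H3.3 K27M is the defining mutation of most diffuse midline gliomas. The mutant histone hinders PRC2, the complex that places the repressive trimethyl mark on lysine 27 of histone H3. Activation of the PDGF receptor and loss of p53 accompany it in many of these tumors, whose cells resemble precursors of oligodendrocytes. Neurospheres are floating spheres of neural stem and progenitor cells that divide under added growth factors and lack blood vessels and immune cells.

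Values are FPKM as deposited, that is, fragments relative to transcript length and to the mapped total of the library. Tumor values are given as the lowest, the median and the highest of the 20 tumors, and culture values for experiments 1, 2 and 3. Log2 changes are tumors over cultures on the log2(FPKM + 1) scale with their standard error, and for genes of low FPKM they are smaller than the change itself. A gene passed at an adjusted p under 0.05 in limma, adjusted over the 16348 genes with at least 1 FPKM in at least 3 of the 23 libraries. In bulk RNA, more cells of a type and more RNA per cell cannot be told apart, and this holds for every gene group below.

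The groups differed across a large part of the transcriptome. Of the genes tested, 5282 (32.3%) were higher and 4237 (25.9%) lower in the tumors, and 2981 (18.2%) were higher and 1817 (11.1%) lower by at least 2-fold as well. The 20 tumors and the 3 cultures did not overlap for 6010 genes (36.8%), of which 3387 were higher and 2623 lower in the tumors. Counts over gene lists are read against these shares. The split depends on scaling, since higher genes made up 55.5% of the calls with FPKM as deposited but 44.9% after median centring, 46.5% after rescaling each library to 1 common sum and 40.0% after quantile normalization. The median log2 change of all genes was 0.10 as deposited and -0.05, -0.07 and -0.10 after the same 3 scalings, so a change should be read against a shift of that size.

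The first principal component of log2(FPKM + 1) took 49.1% of the variance and separated the tumors from the cultures. The second took 16.8% and spread the tumors, with tumor 16 at one end and tumors 1 and 4 at the other. Pearson correlations of log2 values over genes were 0.807 to 0.977 between tumors, 0.986 to 0.994 between cultures and 0.694 to 0.815 between a tumor and a culture. The median standard deviation of a gene was 0.37 on the log2 scale in tumors and 0.13 in cultures. Relative depth was estimated from the most common ratio of low FPKM values to those of the culture of experiment 1, which was set to 1. It was 0.564 to 1.97 in tumors and 1 to 1.21 in cultures, and differences in low-level expression can move it. The 2 largest entries took 31.1 to 44.5% of all FPKM in tumors and 33.3 to 35.6% in cultures.

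**Figure D1:**
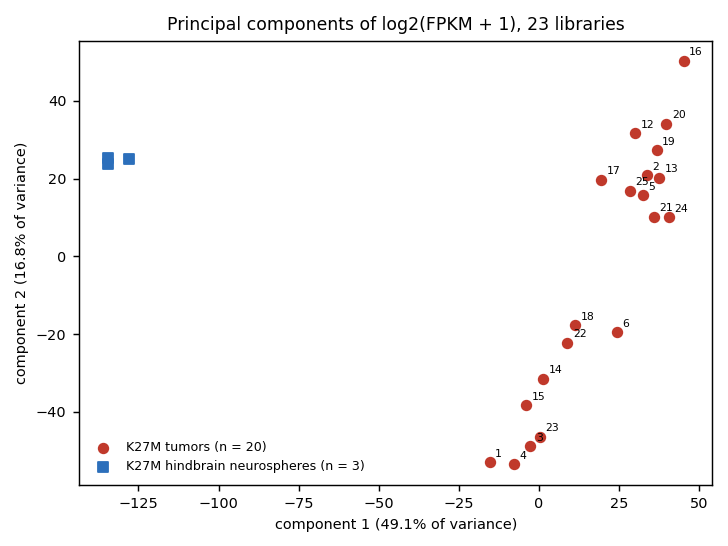
Principal components of log2(FPKM + 1) over the 20 K27M tumors (circles, labelled by tumor number) and 3 K27M hindbrain neurosphere cultures (squares), with component 1 on the x axis (49.1% of variance) and component 2 on the y axis (16.8%). The cultures lie together at the left, and the tumors spread along component 2.

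The genes of the mouse model were examined first. H3f3a, which encodes H3.3 and carries the knock-in, had 34.0, 56.0 and 101 FPKM in tumors, against 115, 115 and 112 in cultures. Every tumor lay below every culture, and the log2 change was -0.97 ± 0.25 (adjusted p = 0.00183). The summed value cannot tell the mutant from the normal allele. H3f3b, another gene for the same protein, did not pass, with 79.7, 144 and 354 FPKM in tumors and 212, 209 and 244 in cultures (log2 change -0.57 ± 0.30, adjusted p = 0.0996). It was called lower after rescaling to 1 common sum, with a spread for each group, with a sex term and without tumor 14 (adjusted p = 0.00604 to 0.0372).

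Pdgfra, the receptor of which an activated form drives these tumors, was at 33.5, 114 and 337 FPKM in tumors, against 7.18, 6.82 and 3.22 in cultures. All 20 tumors were above all cultures, with a log2 change of 4.18 ± 0.58 (adjusted p = 2.35e-06); transgene and endogenous transcripts are not told apart. Trp53 had 1.92, 2.39 and 5.54 FPKM in tumors, against 9.01, 8.45 and 7.17 in cultures, and fell without overlap (log2 change -1.34 ± 0.18, adjusted p = 1.04e-06). The summed value is no check of the floxed exons, since host cells keep the gene and transcripts outside the deleted part may remain. Nes, the stem cell filament gene whose regulatory sequence drives both Cre lines, was at 5.83, 12.8 and 55.4 FPKM in tumors and 130.1, 128 and 109 in cultures, again without overlap (log2 change -3.15 ± 0.45). Asb4 did not pass (log2 change 0.77 ± 0.49, adjusted p = 0.183).

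The gene lists moved in blocks. Lists of interferon response, antigen presentation, microglia, endothelium, myelin and neurons were higher in tumors for nearly all tested members, whereas cell cycle, p53 target, neural stem cell, hypoxia, immediate early and cholesterol lists were lower for most. A member under 1 FPKM in all 3 cultures was tested only because tumors reached that limit, and had little room to be lower. This held for 8 of 13 tested myelin genes, 15 of 19 neuronal, 12 of 13 endothelial, 8 of 10 pericyte and fibroblast, 13 of 22 interferon response, 6 of 14 antigen presentation, 6 of 11 reactive glia and 3 of 6 PDGF genes. It also held for 6 of 15 BMP and TGF-beta genes, 5 of 22 matrix, 4 of 17 imprinted and 4 of 16 Wnt genes. The same was true of 3 of 15 oligodendrocyte precursor genes, 3 of 14 other growth factor receptors and 2 of 14 astrocyte genes. So it was for 5 of 11 hindbrain and midbrain, 2 of 8 fetal growth and 4 of 6 ependymal and choroid plexus genes. All 4 tested red blood cell genes, 1 of 15 Notch genes and 1 of 14 MAP kinase feedback genes were further cases. The counts of these lists are descriptions only. Conversely, 2 of 16 neural stem cell genes, 1 of 20 p53 targets and none of the tested cell cycle, hypoxia, immediate early and cholesterol genes were under 1 FPKM in every tumor.

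**Figure D2:**
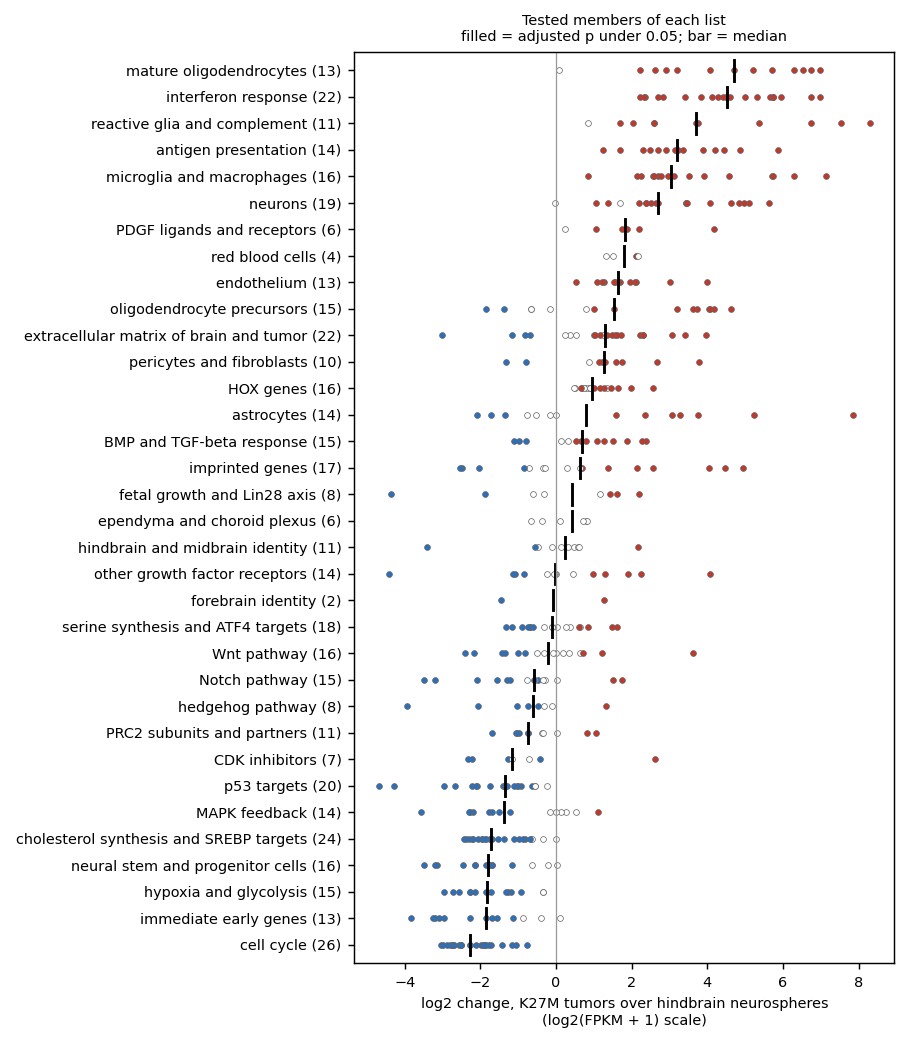
Log2 change of K27M tumors over K27M hindbrain neurospheres for each tested member of the gene lists (dots; number tested in brackets), filled red or blue where the gene passed in the higher or lower direction and white where it did not, with the list median as a black bar. The median was 4.70 for mature oligodendrocytes at the top and -2.29 for cell cycle at the bottom.

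Growth factor receptors moved in both directions. PDGF ligands bind the receptors Pdgfra and Pdgfrb, which pass the signal to the MAP kinase cascade, and the cascade induces its own inhibitors of the Dusp, Spry and Spred families. Of 6 PDGF ligands and receptors, 5 were higher in tumors and none was lower, against 32.3% of all genes higher. Pdgfa, a ligand of Pdgfra, was at 7.59, 13 and 29.8 FPKM in tumors, against 1.85, 1.92 and 2.47 in cultures (log2 change 2.20 ± 0.25, adjusted p = 1.37e-07), without overlap. Pdgfd had 0.489, 3.38 and 5.89 FPKM in tumors and 0.023, 0.064 and 0.085 in cultures. Pdgfrb, the receptor of pericytes, had 1.59, 2.36 and 4.12 FPKM in tumors and 0.045, 0.042 and 0.048 in cultures. Both rose, each with every tumor above every culture. Pdgfb was at 0.55, 1.84 and 3.36 FPKM in tumors and 0.505, 0.285 and 0.181 in cultures, and its call was lost under quantile normalization (adjusted p = 0.248) and in the fit of 35 libraries that includes the WT-Tag groups (adjusted p = 0.187). Pdgfc did not pass (log2 change 0.24 ± 0.14).

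Egfr, the receptor of epidermal growth factor, was among the largest falls of all genes. It had 0.973, 2.52 and 5.98 FPKM in tumors, against 70.4, 65.1 and 93.1 in cultures. The highest tumor stayed far below the lowest culture, and the log2 change was -4.41 ± 0.30 (adjusted p = 1.62e-11). Erbb3, its relative expressed in the oligodendrocyte lineage, moved the other way, with 4.91, 20.0 and 59.4 FPKM in tumors and 0.099, 0.038 and 0.104 in cultures (log2 change 4.07 ± 0.50, adjusted p = 3.61e-07). Of 14 other growth factor receptors, 5 were higher and 4 lower, near the 32.3% and 25.9% of all genes. These counts are thus no trait of the list, and its median of -0.02 changed sign with the settings. Kit, the stem cell factor receptor, and Ntrk3, a neurotrophin receptor, rose by 2.26 and 1.91 on the log2 scale. Fgfr1 fell by 1.14 and Erbb2 by 1.08 on the log2 scale. Fgfr3 and Insr, the insulin receptor, did not pass, at log2 changes of -0.01 and -0.03.

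The feedback genes of the MAP kinase cascade were lower for 8 of 14 and higher for 1, against 25.9% of all genes lower, with a median log2 change of -1.37. Spry4, an inhibitor of receptor signaling, was at 2.14, 4.16 and 9.67 FPKM in tumors, against 63.1, 58.8 and 60.9 in cultures (log2 change -3.56 ± 0.27, adjusted p = 2.03e-10). Dusp6, the phosphatase of ERK, had 19, 43.3 and 87.1 FPKM in tumors and 225, 218 and 186 in cultures. Neither gene overlapped between the groups. Spry2, Spry1, Dusp5, Ier3 and the transcription factor Etv5 also fell without overlap, by 2.28, 1.51, 1.78, 2.30 and 1.71 on the log2 scale. The fall of Dusp4 (-1.23) and the rise of Phlda1 (1.11) were each lost when some single cultures were left out, with adjusted p-values of 0.0526 to 0.0576 for Dusp4 and 0.0548 to 0.0727 for Phlda1. That of Phlda1 was also lost under quantile normalization (0.0554) and with female libraries only (0.0525). Etv1, Etv4, Fosl1, Spred1 and Spred2 did not pass, at log2 changes from -0.15 to 0.54. The growth factors in the culture medium are not given in full by the labels, and their part in these values was not tested.

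Tumor cells of this disease resemble oligodendrocyte precursors, which progress to myelin-forming cells. Of 15 precursor genes, 9 were higher and 2 lower in tumors, and 6 of the 9 reached 1 FPKM in a culture. Sox10, a transcription factor of the whole lineage, was at 13.2, 70.5 and 108 FPKM in tumors, against 3.22, 2.04 and 2.77 in cultures (log2 change 4.05 ± 0.49, adjusted p = 2.81e-07). Lhfpl3 was at 64.1, 123 and 287 FPKM in tumors and 8.37, 8.62 and 4.22 in cultures. Matn4, a matrix protein gene, was at 7.88, 30.9 and 82.3 FPKM in tumors and 0.109, 0.044 and 0.096 in cultures. For each of these genes every tumor was above every culture.

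Other factors of the lineage did not share that direction. Olig2, which specifies the lineage, was at 9.03, 54.7 and 120.0 FPKM in tumors and 148, 132 and 136 in cultures. It was lower in all 20 tumors, but its call (log2 change -1.37 ± 0.53, adjusted p = 0.0292) was lost when any 1 of the 3 cultures was left out, with adjusted p-values of 0.0766 to 0.0954, and also under quantile normalization (0.153) and with no filter (0.0521). Olig1 and Ptprz1 did not pass and overlapped, at log2 changes of -0.66 and -0.16.

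Myelin genes of mature oligodendrocytes were higher for 12 of 13 tested members, with a median log2 change of 4.70. Cldn11, the tight junction protein of myelin, was at 111, 176 and 406 FPKM in tumors, against 0.59, 0.716 and 0.395 in cultures (log2 change 6.97 ± 0.28, adjusted p = 2.95e-15). Mag, a myelin adhesion protein, was at 51.3, 127 and 228 FPKM in tumors and 0.13, 0.213 and 0.041 in cultures. No tumor overlapped the cultures for these genes, and Mog was listed at 0 in all 3 cultures. Aspa alone did not pass (log2 change 0.07). The mean log2(FPKM + 1) of the list was 4.33, 5.38 and 6.16 in tumors, lowest in tumor 23 and highest in tumor 20, against 0.81, 0.96 and 0.88 in cultures. In tumor 23 the precursor list had its highest mean, 6.44 on the same scale.

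Astrocyte genes split. Of 14 members 7 were higher and 3 lower, against 32.3% of all genes higher and 25.9% lower. Gfap, the filament of astrocytes, was at 76.4, 252 and 629.5 FPKM in tumors, against 0.092, 0.129 and 0.173 in cultures (log2 change 7.84 ± 0.51, adjusted p = 9.13e-12). S100b was at 64.6, 142 and 224 FPKM in tumors and 2.77, 2.63 and 2.65 in cultures. Aldoc and Gjb6, an aldolase and a gap junction protein of astrocytes, rose by 3.76 and 3.27 on the log2 scale. The members that fell are also expressed in radial glia, the stem cells of the embryonic brain: Slc1a3 (-1.73), Mlc1 (-2.09) and Sox9 (-1.35), each with every tumor below every culture. Slc4a4 did not pass, at -0.17.

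The neural stem and progenitor list had no member higher and 13 of 16 lower in tumors, with a median log2 change of -1.79. Vim, the filament vimentin, was at 60.9, 136 and 664 FPKM in tumors, against 991, 951 and 916 in cultures (log2 change -2.45 ± 0.50, adjusted p = 0.000227). Hes1, a repressor induced by Notch, was at 2.81, 4.98 and 12.3 FPKM in tumors and 67.7, 65.5 and 74.4 in cultures (log2 change -3.50 ± 0.28, adjusted p = 3.51e-10). Hes5 was at 2.28, 6.94 and 38.9 FPKM in tumors and 76.2, 74.6 and 92.3 in cultures. The groups did not overlap for any of the 3 genes. Prom1 did not pass (log2 change -0.22).

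Notch receptors on one cell are activated by Delta and Jagged ligands on its neighbor and switch on Hes and Hey genes. Of 15 pathway genes, 8 were lower and 2 higher, against 25.9% of all genes lower and 32.3% higher. Besides Hes1 and Hes5, the ligand Dll1 fell by 1.57 and Lfng, which adds a sugar to Notch receptors, by 2.09 on the log2 scale. The 2 that rose were Hey2, at 1.96, 4.91 and 12.4 FPKM in tumors and 0.619, 0.754 and 1.10 in cultures, and the ligand Jag2, at 1.16, 3.66 and 7.87 FPKM in tumors and 0.675, 0.474 and 0.498 in cultures. Both were above all cultures in every tumor, but Jag2 was under 1 FPKM in every culture and was tested only through the tumors. Notch1 and Hey1 did not pass, at 0.03 and -0.28.

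**Figure D3:**
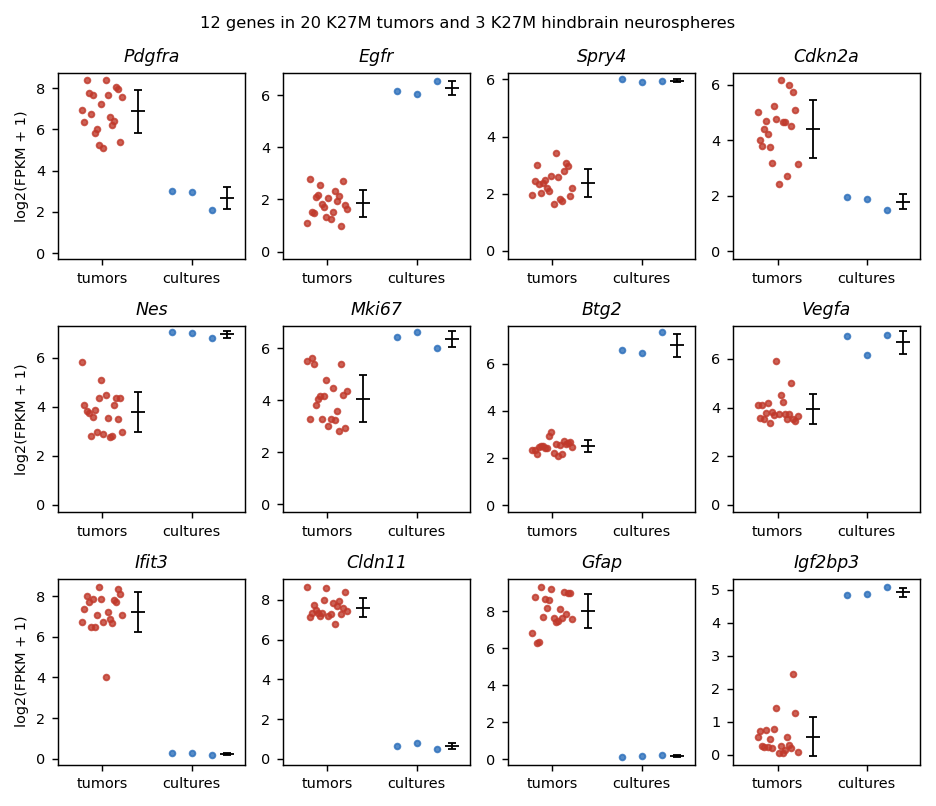
FPKM of 12 genes on the log2(FPKM + 1) scale (y axis) in each of the 20 K27M tumors (left, red) and 3 K27M hindbrain neurosphere cultures (right, blue), with mean ± SD beside the dots. Tumors lie above all cultures for Pdgfra, Cdkn2a, Ifit3, Cldn11 and Gfap and below all cultures for the other 7 genes.

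Markers of cell types that a neurosphere culture lacks were higher in tumors. All 16 tested microglia and macrophage genes were higher, but 14 of them were under 1 FPKM in every culture and were tested only through the tumors. C1qa, a complement subunit made by microglia, was at 69.9, 144 and 266 FPKM in tumors and 0, 0.028 and 0 in cultures (log2 change 7.13 ± 0.31, adjusted p = 8.28e-15). Tyrobp, an adaptor of microglial receptors, was at 22.9, 56.2 and 112 FPKM in tumors and 0, 0 and 0.117 in cultures. Every tumor was above every culture for all tested members, and 16 of the 18 listed genes stayed under 1 FPKM in each culture. The summed FPKM of the list was 256, 529.6 and 889 in tumors, against 17.3, 14 and 21.3 in cultures. Its smallest change was that of Mrc1, a marker of macrophages at the brain's borders, at 0.282, 0.784 and 1.54 FPKM in tumors and 0.024, 0.019 and 0.017 in cultures; this call was lost under quantile normalization.

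Lymphocyte genes gave a different picture. All 10 listed genes, T cell receptor subunits, B cell genes and cytotoxic genes among them, stayed under the filter, and their summed FPKM was 0.071, 0.255 and 1.42 in tumors and 0.405, 0.19 and 0.236 in cultures. Cd3e was at 0, 0.007 and 0.231 FPKM in tumors and 0.024, 0.02 and 0 in cultures, a level near 0 in both groups.

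All 13 endothelial genes were higher. Cldn5, the tight junction protein of brain vessels, was at 8.39, 16.6 and 28 FPKM in tumors and 0.025, 0.02 and 0.047 in cultures (log2 change 4.0 ± 0.27, adjusted p = 1.35e-11). The organic anion transporter Slco1a4 and the adhesion molecule Pecam1 rose by 3.02 and 2.10 on the log2 scale. Of 10 pericyte and fibroblast genes 7 were higher and 2 lower. Rgs5, a pericyte gene, was at 8.34, 13.6 and 25.5 FPKM in tumors and 0.085, 0.114 and 0.065 in cultures (log2 change 3.77 ± 0.22, adjusted p = 1.25e-12). The smooth muscle genes Acta2 and Tagln were lower (-1.32 and -0.79), but each of these calls was lost when single cultures were left out, with adjusted p-values of 0.0679 to 0.11 for Acta2 and 0.0742 to 0.245 for Tagln. With no filter both were lost as well (adjusted p = 0.0604 for Acta2 and 0.0662 for Tagln), and Tagln also in 3 further settings (0.0531 to 0.117).

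Neuronal genes were higher for 17 of 19, with wide spread among tumors. Nefl, the light neurofilament, was at 1.70, 135 and 275 FPKM in tumors, against 0.145, 0.603 and 0.313 in cultures (log2 change 5.63 ± 1.09, adjusted p = 0.000134). Snap25, a synaptic protein, was at 2.49, 92.1 and 212 FPKM in tumors and 0.543, 0.672 and 0.531 in cultures. Tubb3, the neuronal tubulin, varied less, at 29.9, 121 and 188 FPKM in tumors and 2.40, 2.89 and 1.29 in cultures. For all 3 genes the lowest tumor was still above the highest culture. Gap43, a growth cone protein that progenitors also express, overlapped at 72.6, 169 and 336 FPKM in tumors and 87.6, 79.6 and 63.4 in cultures, and its call was lost without the culture of experiment 3 (adjusted p = 0.0766), after rescaling to 1 common sum (0.0679) and with female libraries only (0.0516). Camk2a did not pass (-0.02). The mean log2(FPKM + 1) of the list ran over 1.76, 4.44 and 5.44 in tumors, lowest in tumor 23 and highest in tumor 16, against 0.80, 0.84 and 0.80 in cultures. The part of neurons of the host brainstem in these values was not tested.

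None of the 6 tested ependymal and choroid plexus genes passed in limma, and 1, the ciliary factor Foxj1 (-0.66), had an unadjusted p under 0.05. Their summed FPKM was 1.62, 5.59 and 2672 in tumors, with the highest in tumor 13, against 8.25, 8.33 and 12.8 in cultures. Ttr, transthyretin of the choroid plexus, was at 0, 1.32 and 2617 FPKM in tumors and 1.93, 1.70 and 7.63 in cultures, and its highest value was in tumor 13 too. Of 4 tested red blood cell genes 1 passed. Hemoglobin genes were highest in tumor 1, and the summed FPKM of the red blood cell list was 0.694, 7.21 and 459 in tumors, against 0.11, 0.059 and 0.034 in cultures.

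**Figure D4:**
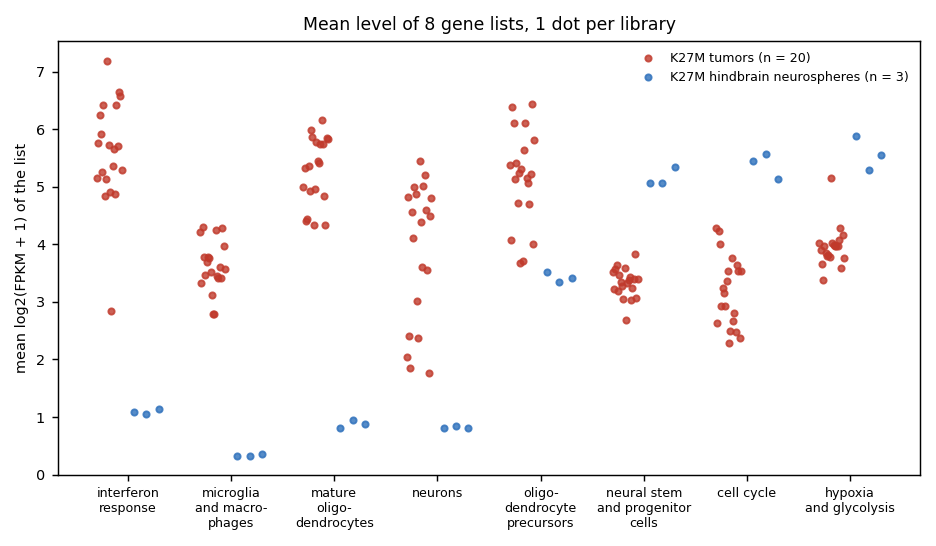
Mean log2(FPKM + 1) of 8 gene lists (y axis), 1 dot per library, with the 20 K27M tumors in red to the left of the 3 K27M hindbrain neurosphere cultures in blue. The neuronal list spreads from 1.76 to 5.44 over tumors, and for interferon response the lowest tumor, at 2.85, is tumor 17.

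Interferons bind their receptors on nearly any cell and, through STAT proteins and IRF9, switch on genes with antiviral functions by way of a DNA element in their promoters. All 22 interferon response genes were higher in tumors, against 32.3% of all genes, and under every setting tried all 22 remained called. The 9 members at 1 FPKM or more in at least 1 culture were all among them. Ifit3, an antiviral RNA-binding protein, was at 15.48, 157 and 352 FPKM in tumors, against 0.221, 0.197 and 0.133 in cultures (log2 change 6.99 ± 0.54, adjusted p = 1.86e-10). Gbp2, a guanylate-binding protein, was at 18.4, 151 and 1284 FPKM in tumors and 0.433, 0.365 and 0.907 in cultures. Gbp3 was at 12.8, 110.1 and 604 FPKM in tumors and 1.02, 1.07 and 0.552 in cultures. Every tumor was above every culture for the 3 genes.

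The promoters of these genes are shown for the element through which interferon signals reach them. They are the 250 bases before the gene start in the RefSeq promoter table (GRCm38.p6), 5′ to 3′ on the gene's strand, with matches to the core of the interferon-stimulated response element, GAAANNGAA on either strand, in capitals. Ifit3 lies at chr19:34583279-34583528, Gbp2 at chr3:142620413-142620662 and Gbp3 at chr3:142559794-142560043, all on the plus strand.
Ifit3: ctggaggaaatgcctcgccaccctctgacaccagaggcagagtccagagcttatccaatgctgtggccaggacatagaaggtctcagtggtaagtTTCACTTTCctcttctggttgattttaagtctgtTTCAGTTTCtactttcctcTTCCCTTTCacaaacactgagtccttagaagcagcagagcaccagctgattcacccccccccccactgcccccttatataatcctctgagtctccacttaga
Gbp2: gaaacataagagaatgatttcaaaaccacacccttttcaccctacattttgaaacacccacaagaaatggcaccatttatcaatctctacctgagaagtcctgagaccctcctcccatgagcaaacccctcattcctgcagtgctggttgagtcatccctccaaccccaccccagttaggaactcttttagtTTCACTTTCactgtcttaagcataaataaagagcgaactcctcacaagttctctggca
Gbp3: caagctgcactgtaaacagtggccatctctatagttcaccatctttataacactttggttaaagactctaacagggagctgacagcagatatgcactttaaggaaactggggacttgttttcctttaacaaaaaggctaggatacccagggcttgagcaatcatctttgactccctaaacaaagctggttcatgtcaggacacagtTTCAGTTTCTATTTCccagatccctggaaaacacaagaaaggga

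Ifit3 held 3 matches, Gbp2 held 1 and Gbp3 held 2 that overlap each other. Of the 22 listed genes 18 had an entry, with 21 promoters, of which 10 (47.6%) held the letters, against 7.13% of all 32851 promoters of the table. Ifit1, Isg15, Stat2, Oas1a, Rsad2, Bst2 and Ifih1 were the other members with a match. Ifit2, Irf7, Irf9, Oasl2, Ifi44, Ddx58, Ifitm3 and Xaf1, which rose as well, had none in this window. A match is a description of letters, not of binding. For comparison, the letters TTTGAA of an element of cell cycle promoters were in 6 of 21 promoters of the cell cycle list (28.6%), against 16% of all, and TCACNCCAC of the sterol response element was in 1 of 17 promoters of the cholesterol list (5.88%), against 1.05%.

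The smallest rises of the list were those of Stat2 (2.23), a subunit of the factor that binds this element, and of Bst2, tetherin, which retains budding virus at the membrane. Bst2 was at 7.18, 104 and 274 FPKM in tumors and 20.6, 13.9 and 18.4 in cultures, with some overlap (log2 change 2.34 ± 0.64, adjusted p = 0.00337). Tumor 17 had the lowest interferon level of the tumors, with a mean log2(FPKM + 1) of 2.85, against a tumor median of 5.68 and 1.08, 1.05 and 1.15 in cultures. The tumor with the highest level, 7.19, was tumor 14.

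Antigen presentation genes, of which many respond to interferon, were all higher (14 of 14). H2-D1, a class I heavy chain, was at 62.4, 523 and 964 FPKM in tumors and 7.98, 6.88 and 7.31 in cultures (log2 change 5.86 ± 0.50, adjusted p = 1.23e-09). Psmb8, a subunit of the immunoproteasome, was at 5.08, 58.8 and 202 FPKM in tumors and 1.25, 0.734 and 0.798 in cultures. Cd74, the chain that guides class II molecules, was at 4.83, 23.7 and 95.2 FPKM in tumors and 0, 0.02 and 0.023 in cultures. No culture reached the lowest tumor for these genes, and tumors 14 and 17 were again highest and lowest over the list. Class I heavy chain genes are near-identical in parts of their sequence, so reads can be split among them.

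Reactive glia and complement genes included the largest rise of the comparison. Serpina3n, a protease inhibitor of reactive astrocytes, was at 90.1, 435 and 1747 FPKM in tumors, against 0.306, 0.167 and 0.369 in cultures (log2 change 8.30 ± 0.45, adjusted p = 4.64e-13). C4b, a complement component, was at 95.5, 213 and 384 FPKM in tumors and 0.062, 0.06 and 0.087 in cultures. Cxcl10, an interferon-induced chemokine, was at 11.3, 101 and 424 FPKM in tumors and 1.13, 1.57 and 1.22 in cultures. The groups stood apart for all 3, and 10 of 11 tested members rose. Ccl2, a chemokine for monocytes, did not pass, at 1.19, 5.68 and 49.8 FPKM in tumors and 4.84, 4.69 and 1.43 in cultures.

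Cell division genes were lower in tumors without exception: 26 of 26, with a median log2 change of -2.29, against 25.9% of all genes. Rrm2, a subunit of ribonucleotide reductase, was at 2.28, 7.25 and 32.3 FPKM in tumors, against 74.3, 84.7 and 59.1 in cultures (log2 change -3.04 ± 0.54, adjusted p = 4.72e-05). Cdc20, an activator of the anaphase-promoting complex, was at 2.93, 8.44 and 26.6 FPKM in tumors and 83.1, 83.3 and 73.7 in cultures. Mki67, the common marker of dividing cells, was at 6.07, 16 and 47.9 FPKM in tumors and 84.2, 98.1 and 63.5 in cultures. Kif11 and Plk1, a spindle motor and a mitotic kinase, fell by 2.89 and 2.82 on the log2 scale. No tumor reached the lowest culture for these 5 genes. The smallest fall was that of Ccne1, cyclin E1, at 2.67, 4.26 and 8.42 FPKM in tumors and 8.90, 9.89 and 6.49 in cultures, with overlap. The mean log2(FPKM + 1) of the list was 2.28, 3.2 and 4.27 in tumors, highest in tumor 1 and lowest in tumor 16, against 5.45, 5.56 and 5.14 in cultures.

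Most inhibitors of cyclin-dependent kinases were lower too. Cdkn2a, the locus of p16 and p19ARF, was the only one of 7 that rose, to 4.41, 22.9 and 71.7 FPKM in tumors, against 2.91, 2.72 and 1.78 in cultures (log2 change 2.63 ± 0.57, adjusted p = 0.000423). Cdkn1a, which encodes p21 and is induced by p53, fell to 3.22, 12.6 and 45.2 FPKM in tumors, against 63.3, 53.4 and 69.5 in cultures (log2 change -2.23 ± 0.66, adjusted p = 0.0062). Cdkn2c was at 1.99, 6.05 and 12.8 FPKM in tumors and 34.3, 37.3 and 31.3 in cultures. Each of these genes was without overlap. Cdkn1b fell as well (log2 change -1.27). Cdkn2d fell by 0.44 on the log2 scale, with a call that ended without the culture of experiment 1 or 2 (adjusted p = 0.0706 to 0.0825). Cdkn1c (-0.72) and Cdkn2b (-1.17) did not pass. With a spread for each group both were called lower (adjusted p = 0.0253 for Cdkn1c and 0.0033 for Cdkn2b), and each was in further settings.

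The p53 protein activates genes of cell cycle arrest and cell death, and its gene is floxed in the tumors and intact in the cultures. Of 20 p53 targets 18 were lower and none was higher. Eda2r, a receptor of the TNF family, was at 0.049, 0.152 and 0.409 FPKM in tumors, against 30.3, 27.1 and 29.1 in cultures (log2 change -4.69 ± 0.09, adjusted p = 5e-22). Btg2, which slows division, was at 3.25, 4.60 and 7.59 FPKM in tumors and 93.8, 86.5 and 162 in cultures (log2 change -4.29 ± 0.18, adjusted p = 4.56e-15). Ccng1, cyclin G1, was at 9.52, 15.7 and 20.1 FPKM in tumors and 126, 123 and 123 in cultures. These were among the tightest separations of the comparison, with the 20 tumors close together and far below the cultures. Trp53inp1 fell by 2.68 on the log2 scale. Mdm2, the ligase that degrades p53, was at 8.63, 13.1 and 18.0 FPKM in tumors and 19.5, 18.4 and 22.2 in cultures, lower in every tumor but with a small change (-0.55 ± 0.17) whose call ended without the culture of experiment 3 (adjusted p = 0.0525). Fas did not pass (-0.24).

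Oxygen, growth signals and sterol supply each have a set of responsive genes, and most members of all 3 sets were lower in tumors. Of 15 hypoxia and glycolysis genes 13 were lower and none was higher. Adm, adrenomedullin, was at 1.25, 3.64 and 17.7 FPKM in tumors, against 41.2, 27.8 and 42.8 in cultures (log2 change -2.96 ± 0.41, adjusted p = 1.85e-06). Vegfa, the main growth factor of vessels, was at 9.26, 12.2 and 60.1 FPKM in tumors and 121, 69.6 and 127 in cultures. Ldha, lactate dehydrogenase, was at 34.9, 70.6 and 249 FPKM in tumors and 502, 402 and 385 in cultures. Although the groups did not overlap for these genes, tumor 15 came near the cultures, with a list mean of 5.15 on the log2(FPKM + 1) scale, against 5.87, 5.28 and 5.55 in the cultures. The glucose transporter Slc2a1 and Ndrg1 did not pass (-0.35 and -0.34).

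Immediate early genes, which rise within minutes of a stimulus, were lower for 10 of 13. Fosb was at 0.039, 0.217 and 1.44 FPKM in tumors and 13.3, 14.2 and 34.3 in cultures (log2 change -3.85 ± 0.25, adjusted p = 1.13e-11). Fos was at 11.5, 38.3 and 113 FPKM in tumors and 264, 290.4 and 481 in cultures, and Ier2 and Egr1 fell by 3.25 and 3.11 on the log2 scale. The culture of experiment 3 was the highest for Fosb and Fos, and no tumor reached any culture. Atf3, a stress factor, did not pass, at 5.30, 19.3 and 65.8 FPKM in tumors and 17.2, 23.8 and 14.4 in cultures. Handling before freezing differs between tissue and culture, and its part was not tested.

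Cholesterol synthesis genes and other targets of SREBP2, the factor that senses sterol depletion, were lower for 20 of 24. Insig1, which retains the SREBP complex in the endoplasmic reticulum, was at 15.8, 34.6 and 126 FPKM in tumors, against 249.9, 234 and 185 in cultures (log2 change -2.38 ± 0.47, adjusted p = 0.000178). Idi1, an isomerase of the isoprenoid pathway, was at 5.07, 7.68 and 16.6 FPKM in tumors and 50.2, 55.7 and 30.2 in cultures. Stard4, a sterol carrier, was at 1.65, 3.77 and 6.54 FPKM in tumors and 27.3, 27.2 and 21 in cultures. The groups did not overlap, and the culture of experiment 3 was the lowest of the cultures for each. Fatty acid enzymes did not share the fall: Fasn and Scd1 did not pass (log2 changes of -0.0027 and -0.34).

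Serine synthesis and ATF4 targets were higher for 4 and lower for 7 of 18, against 32.3% of all genes higher and 25.9% lower. Phgdh, the first enzyme of serine synthesis, fell to 23.9, 38.9 and 77.7 FPKM in tumors, against 92.0, 98.3 and 85.9 in cultures (log2 change -1.16 ± 0.24, adjusted p = 0.000224). Slc7a3, a transporter of cationic amino acids, rose to 4.02, 8.54 and 25.6 FPKM in tumors, against 2.05, 1.65 and 3.43 in cultures (log2 change 1.6 ± 0.35, adjusted p = 0.000454). Neither overlapped. Asns, asparagine synthetase, did not pass (0.03).

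Position along the body axis was read from HOX genes, which mark the hindbrain from its middle part backwards and the spinal cord. Of 39 HOX genes 16 were tested, all of them only because tumors reached 1 FPKM, so the filter left little room for a lower gene. Of these, 10 passed, all higher. Hoxa5 was at 0.066, 6.69 and 15.6 FPKM in tumors and 0, 0.107 and 0.035 in cultures (log2 change 2.56 ± 0.63, adjusted p = 0.00137), and 19 of the 20 tumors were above all cultures. Hoxa2, expressed furthest forward of its family, was at 1.87, 2.90 and 12.8 FPKM in tumors and 0, 0.213 and 0.055 in cultures (log2 change 1.99 ± 0.29, adjusted p = 4.95e-06), with every tumor above every culture. The posterior genes Hoxa9, Hoxa10 and Hoxc10 were near 0 in both groups, with highest values of 0.105, 0.029 and 0.011 FPKM in tumors and 0.01, 0.009 and 0.018 in cultures. All 39 genes stayed under 1 FPKM in each culture, and their summed FPKM was 7.15, 24.5 and 67.2 in tumors, against 0.239, 0.722 and 0.235 in cultures. Between 3 and 15 of the HOX genes were called higher across the settings.

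The labels place the cultures in the hindbrain, and their region genes gave a mixed record. Irx2, a homeobox gene of midbrain and hindbrain, was at 4.34, 7.40 and 13.4 FPKM in tumors, 9.87, 9.71 and 11.5 in hindbrain cultures and 0.121, 0.101 and 0.039 in K27M forebrain cultures. Otx2, a gene of forebrain and midbrain, was at 0, 0.022 and 3.36 FPKM in tumors, against 22.5, 21.7 and 28.5 in hindbrain and 5.83, 6.42 and 4.61 in forebrain cultures. The hindbrain cultures thus had Irx2, but they also had no HOX gene at 1 FPKM and the most Otx2 of the 3 groups. The fall of Otx2 in tumors against hindbrain cultures (-4.34 ± 0.31, adjusted p = 4.96e-11) was among the largest of all genes.

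Of 11 hindbrain and midbrain genes, 1 rose and 2, Egr2 and Irx5, fell. Egr2, a hindbrain segment gene that belongs to the immediate early family too, was at 0.398, 1.67 and 5.28 FPKM in tumors and 26.5, 24.9 and 36.6 in cultures (log2 change -3.41 ± 0.36, adjusted p = 3.92e-08). No tumor reached a culture for Egr2. The fall of Irx5 (-0.57) was lost when any 1 culture was left out (adjusted p = 0.0571 to 0.0992) and in the fit of 35 libraries (0.086). En1, En2, Pax8, Irx1, Irx2 and Irx3 did not pass, at log2 changes from -0.47 to 0.58. In some other settings En1 and Pax8 were called higher and Irx2 and Irx3 lower.

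Against the forebrain cultures, which share the same 20 tumors with this comparison, 5439 genes (33.3%) were higher and 4175 (25.6%) lower of 16338 tested. For hindbrain and midbrain genes 7 were then higher and 1 lower of 11, and Irx2 had a log2 change of 2.91 against forebrain cultures and -0.47 against hindbrain cultures. Cell cycle genes had a median of -2.37 against forebrain and -2.29 against hindbrain cultures, interferon response genes 4.46 against forebrain and 4.51 against hindbrain cultures, and p53 targets -1.28 against forebrain and -1.35 against hindbrain cultures. Hypoxia genes had medians of -1.02 against forebrain and -1.84 against hindbrain cultures. Differences between these pairs of values were not tested here.

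Genes of fetal growth showed opposite signs. The RNA-binding proteins of the Igf2bp family stabilize growth-related transcripts in the embryo. Igf2bp3 was at 0.043, 0.209 and 4.41 FPKM in tumors, against 27.6, 28 and 32.9 in cultures (log2 change -4.38 ± 0.33, adjusted p = 1.17e-10). Igf2bp1 was at 0, 0.0055 and 0.014 FPKM in tumors and 2.39, 2.64 and 3.07 in cultures (log2 change -1.87 ± 0.08, adjusted p = 7.62e-15). No tumor reached a culture. Igf2bp2 (-0.31), Lin28b (-0.62), which blocks let-7 microRNAs, and Hmga2 (1.17) did not pass. Dlk1, an imprinted growth regulator, rose to 0.535, 2.57 and 17.5 FPKM in tumors, against 0.23, 0.193 and 0.135 in cultures (log2 change 1.61 ± 0.42, adjusted p = 0.00215), without overlap. As Dlk1 was under 1 FPKM in every culture, it was tested only through the tumors. H19 and Igf2 rose by 2.20 and 1.42 on the log2 scale, but their calls were lost when single libraries were left out, with adjusted p-values of 0.0505 to 0.184 for H19, where 3 of the 6 libraries were tumors, and 0.0778 to 0.0797 for Igf2, where both were cultures. Quantile normalization also ended the calls of Igf2 and Dlk1, and that of H19 was lost with no filter, after median centring and after rescaling to 1 common sum (adjusted p = 0.051 to 0.0728).

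Imprinted genes, expressed from 1 parental copy, were higher for 7 and lower for 4 of 17. Of all genes 32.3% were higher and 25.9% lower, and 4 of the 7 reached 1 FPKM in a culture. Meg3, a long noncoding RNA of the maternal chromosome, was at 10.4, 48.4 and 84.1 FPKM in tumors, against 0.12, 0.152 and 0.316 in cultures (log2 change 4.93 ± 0.50, adjusted p = 2.04e-08). Rian, of the same cluster, was at 18.0, 42.9 and 67.2 FPKM in tumors and 1.08, 0.942 and 1.04 in cultures. Peg10 was at 0.289, 6.65 and 13 FPKM in tumors and 42.8, 45.1 and 39.3 in cultures, and Mest at 0.489, 10.2 and 23.9 in tumors and 63.0, 59.2 and 47.9 in cultures. All tumors were above the cultures for Meg3 and Rian and below them for Peg10 and Mest. Mirg and Rasgrf1 rose by 2.57 and 4.05 on the log2 scale, and Grb10, an adaptor that restrains insulin signaling, fell by 2.03 on the log2 scale.

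PRC2, the complex that K27M hinders, has an enzymatic subunit in 2 forms. Ezh2, the form of dividing cells, was at 1.96, 4.41 and 10.5 FPKM in tumors, against 16.9, 18.1 and 16.7 in cultures (log2 change -1.70 ± 0.32, adjusted p = 8.62e-05), without overlap. Ezh1, the form of resting cells, was at 2.84, 5.59 and 7.61 FPKM in tumors and 1.44, 1.33 and 3.06 in cultures (log2 change 1.05 ± 0.25, adjusted p = 0.00108), with overlap. The core subunit Eed and the histone-binding Rbbp7 and Rbbp4 fell by 1.07, 1.02 and 0.98 on the log2 scale. In all 6 of 11 were lower and 2 higher, against 25.9% of all genes lower and 32.3% higher. The cell cycle list was lower too, at a median of -2.29. The part of cell division in the PRC2 values was not tested.

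Hedgehog signaling passes through the membrane protein Smo and is aided by co-receptors. Gas1, a co-receptor, was at 1.03, 2.26 and 3.86 FPKM in tumors, against 39.7, 39.3 and 76.3 in cultures (log2 change -3.95 ± 0.22, adjusted p = 4.53e-13). Smo was at 5.25, 7.53 and 9.36 FPKM in tumors and 34.3, 32.7 and 33.8 in cultures. Hhip, which binds and removes the ligand, rose to 0.834, 2.62 and 5.51 FPKM in tumors, against 0.495, 0.405 and 0.514 in cultures. For each of the 3 the groups stood apart. Ptch1, the receptor and a common readout of the pathway, did not pass, at 8.62, 14.8 and 20.0 FPKM in tumors and 18.2, 16.3 and 21.1 in cultures. It was called lower after median centring, after rescaling to 1 common sum and with a spread for each group (adjusted p = 0.0121 to 0.0446). Of 8 tested members 5 were lower and 1, Hhip, was higher. Hhip was under 1 FPKM in every culture and was tested only through the tumors.

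Among Wnt genes 3 were higher and 6 lower of 16, against 32.3% of all genes higher and 25.9% lower. None of the 3 reached 1 FPKM in a culture. Sfrp1, a secreted inhibitor, was at 5.36, 17.3 and 34.2 FPKM in tumors, against 0.442, 0.617 and 0.182 in cultures (log2 change 3.61 ± 0.38, adjusted p = 3.41e-08), while the ligands Wnt5a and Wnt7a fell by 2.40 and 2.17 on the log2 scale. BMP and TGF-beta genes were higher for 10 and lower for 3 of 15, and 4 of the 10 reached 1 FPKM in a culture. Id4, a target that restrains differentiation factors, was at 6.09, 13.2 and 31.4 FPKM in tumors and 1.18, 1.73 and 2.63 in cultures (log2 change 2.37 ± 0.32, adjusted p = 1.21e-06), and the inhibitor Smad7 at 2.53, 3.59 and 5.58 in tumors and 0.606, 0.584 and 0.842 in cultures. Sfrp1, Id4 and Smad7 were above all cultures in each tumor.

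Extracellular matrix genes were higher for 14 of 22 and lower for 4, and 9 of the 14 reached 1 FPKM in a culture. Tenascins went in opposite directions. Tnr, the tenascin of the oligodendrocyte lineage, was at 22.5, 49.5 and 193 FPKM in tumors, against 2.62, 2.89 and 2.28 in cultures (log2 change 3.96 ± 0.47, adjusted p = 2.55e-07). Tnc, the tenascin of radial glia and gliomas, was at 4.05, 24.4 and 116 FPKM in tumors and 232, 202 and 204 in cultures (log2 change -3.02 ± 0.73, adjusted p = 0.00119). Both were without overlap. The proteoglycans Acan and Vcan rose by 3.06 and 2.30 on the log2 scale, and Bcan and Cd44 did not pass (0.38 and 0.24).

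Beyond the lists, the 12 largest rises included the interferon-induced GTPase Igtp, at 16.6, 211 and 1178 FPKM in tumors and 0.399, 0.724 and 0.916 in cultures, the lysosomal protease Ctss of microglia, at 83.9, 178 and 337 in tumors and 0.026, 0.021 and 0 in cultures, and the lipid carrier Apod, at 30.2, 159 and 637 in tumors and 0.054, 0.022 and 0.051 in cultures. Ly6a, a surface protein induced by interferon, was listed at 0 in all 3 cultures and was at 24.7, 208 and 848 FPKM in tumors. None of these genes overlapped, which was a condition for entering the 12 and is no result.

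The largest falls of named genes had different roles. Fbln2, a matrix protein, was at 1.43, 3.85 and 14.6 FPKM in tumors, against 252, 192 and 289.9 in cultures (log2 change -5.46 ± 0.37, adjusted p = 1.91e-11). Psrc1, a microtubule protein and p53 target, was at 0.288, 1.29 and 3.85 FPKM in tumors and 51.8, 45.2 and 62.0 in cultures. Txn1, thioredoxin, was at 36.6, 69.5 and 339 FPKM in tumors and 1554, 1572 and 1289 in cultures. Every tumor lay below every culture, again a condition for being named here. Actc1, the actin of heart muscle, was at 0, 0.022 and 0.22 FPKM in tumors and 16.2, 15.9 and 30.3 in cultures. The sulfotransferase gene Chst7, the cytochrome oxidase subunit gene Cox6b2 and the growth inhibitor gene Ddit4l fell by 4.24, 4.10 and 4.06 on the log2 scale.

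Among called genes without overlap, unnamed gene models took 11 of the 20 largest falls and none of the 20 largest rises. Gm10800 was at 1.13, 18.6 and 192 FPKM in tumors, against 2399, 3586 and 1804 in cultures. Gm10718 was at 0.064, 5.33 and 44.0 FPKM in tumors, against 771, 1092 and 590.4 in cultures. Gm11167 was at 0.096, 2.06 and 9.96 FPKM in tumors, against 268, 359.9 and 209 in cultures. They moved together, with the culture of experiment 2 highest and that of experiment 3 lowest for each. Whether these models have sequence or reads in common was not examined, so single values are uncertain. Their fall was also present in WT-Tag libraries, where the log2 changes of tumors over hindbrain cultures were -8.43, -8.22 and -7.62 for Gm10800, Gm10718 and Gm11167.

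Whether the change from culture to tumor differed between K27M and WT-Tag was tested as the difference of the 2 log2 changes, in a fit of 35 libraries (20 K27M tumors, 3 K27M hindbrain cultures, 9 WT-Tag tumors and 3 WT-Tag hindbrain cultures). Of 16721 genes, 64 (0.383%) passed, 31 with a positive and 33 with a negative difference, and 1253 had an unadjusted p under 0.05. The WT-Tag tumors alone differed from their cultures in 4514 genes that were higher and 2711 that were lower.

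S100b had a tumor-over-culture log2 change of 5.23 ± 0.30 in K27M and 2.71 ± 0.33 in WT-Tag, a difference of 2.52 ± 0.45 (adjusted p = 0.00229), with 64.6, 142 and 224 FPKM in K27M and 35.6, 96.8 and 149 in WT-Tag tumors, and 2.77, 2.63 and 2.65 FPKM in K27M and 7.95, 16.5 and 16 in WT-Tag cultures. Apoe, the main lipid carrier of glia, had a difference of 2.52 ± 0.51 (adjusted p = 0.00992), with 487, 839.9 and 1277 FPKM in K27M and 404, 920.2 and 1617 in WT-Tag tumors, and 44.2, 53.7 and 91.9 in K27M and 135, 476 and 772 in WT-Tag cultures. In these glial genes the tumors of both genotypes overlapped, and the K27M cultures lay below the WT-Tag cultures. Lcat, an enzyme that esterifies cholesterol, Nfasc, a cell adhesion protein of axons and glia, and Mgll, a lipase, had differences of 2.80, 2.36 and 2.08.

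Among negative differences, Dkk3, a secreted protein of the Dickkopf family, had a log2 change of 0.34 ± 0.31 in K27M and 3.19 ± 0.33 in WT-Tag (difference -2.84 ± 0.45, adjusted p = 0.000725). It was at 7.03, 19.1 and 35.7 FPKM in K27M and 9.77, 21.7 and 52.3 in WT-Tag tumors, and at 11.5, 12.4 and 17.1 in K27M and 2.48, 0.927 and 1.68 in WT-Tag cultures. Fndc3c1 was at 0.004, 0.0235 and 0.618 FPKM in K27M and 0.009, 0.04 and 0.556 in WT-Tag tumors, and at 6.60, 6.39 and 3.71 in K27M and 0.079, 0.103 and 0.083 in WT-Tag cultures (difference -2.58 ± 0.23, adjusted p = 2.18e-09). Epha3, an ephrin receptor, was at 16.9, 17.4 and 13.1 FPKM in K27M and 3.49, 1.19 and 1.79 in WT-Tag cultures (difference -1.96 ± 0.36). The cultures of the 2 genotypes stood apart for each, and the tumors overlapped. Htr3a, a serotonin receptor subunit, the adhesion receptor Cd97, the protease Adamts3 and the estrogen receptor Gpr30 had differences of -2.07, -2.0, -1.99 and -1.90. Igf2bp1, of the fetal growth list, also passed, at 2.39, 2.64 and 3.07 FPKM in K27M and 0.012, 0.032 and 0.016 in WT-Tag cultures (difference -1.85 ± 0.10, adjusted p = 9.7e-16).

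**Figure D5:**
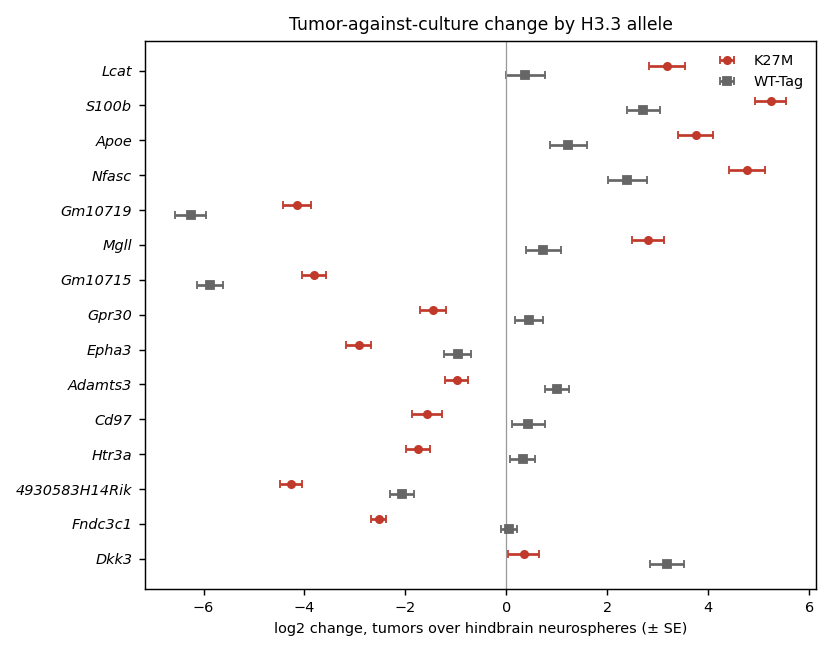
Log2 change of tumors over hindbrain neurosphere cultures (x axis, ± SE) in K27M (red circles) and WT-Tag (grey squares) for 15 of the genes with the largest differences that passed. S100b has 5.23 ± 0.30 in K27M and 2.71 ± 0.33 in WT-Tag, and Dkk3 at the bottom has 0.34 ± 0.31 in K27M and 3.19 ± 0.33 in WT-Tag.

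These calls rest on few cultures. Of the 15 genes plotted, 12 lost the call under at least 1 setting, 8 of them when a single library was left out, and 3 (S100b, Dkk3 and Fndc3c1) kept it under every setting tried. Apoe and Epha3 were among the 8, with adjusted p-values of 0.0619 to 0.175 and 0.0709 where the call was lost. The count of 64 was 22, 26 and 36 without the K27M culture of experiment 1, 2 or 3, and 157, 22 and 20 without the WT-Tag culture of experiment 1, 2 or 3. The WT-Tag culture of experiment 3 was male, and with female libraries only the count was 10. WT-Tag tumors 8 and 9 had sex-linked transcripts that did not match their labels, and without them 57 genes passed. Of the lists, 0 of 22 interferon genes, 0 of 26 cell cycle genes and 1 of 20 p53 targets passed the test of the difference. Their median differences were 0.19, -0.64 and -0.36. As 0.383% of all genes passed, a 0 in a list of this size does not show that the changes were alike. The p53 target that passed was Pmaip1, at 12.4, 11.8 and 14.1 FPKM in K27M and 5.03, 2.32 and 2.72 in WT-Tag cultures. Its call was lost under quantile normalization (adjusted p = 0.0659) and with female libraries only (adjusted p = 0.0623).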

How the data were processed

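RNA-seq libraries were made from Trizol-extracted RNA with the TruSeq Stranded Total RNA kit, and ERCC spike-in RNA was added to the culture samples, per the labels' protocols. The submitters' processing notes list mm9 as the build and STAR, TopHat2 and CASAVA as tools, without versions or roles. The read counter and the gene models were not given in the sources used here. What the authors deposited is FPKM for 34591 entries, to 3 decimals. It holds no read counts, so absolute depth is unknown and count models were not used, and FPKM makes each value relative to the rest of its library.

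Groups were taken from the labels. No 2 libraries held identical values. Differences were tested on log2(FPKM + 1) with limma 3.58.1 (R 4.3.3, mean-variance trend, moderated test, Benjamini-Hochberg adjustment over all genes tested), for genes at 1 FPKM or more in at least 3 libraries of each fit. The test was checked on simulated data in which a gene had the same spread in all groups. That check does not cover the wider spread of the tumors. Replicate numbers of the hindbrain cultures mark experiments in the labels, and the deviations of same-numbered K27M and WT-Tag cultures correlated at 0.380, 0.145 and 0.404 across genes.

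The 36 gene lists held 536 genes, 534 of them in the table. The lists, members and tests were chosen with earlier results of these data known. Genes to be named were, per list, up to 4 with the largest change in each direction that passed and up to 2 with the smallest change, every member of the lists on model genes, PDGF, MAP kinase feedback, CDK inhibitors, HOX and regional identity and fetal growth, the 12 largest rises and falls without overlap, and the 8 largest differences in each direction. Not all of them are printed, and some items are not reported here. Mki67, Foxj1, Ttr, Cd3e, Mog, Hoxa9, Hoxa10, Hoxc10, Pmaip1 and the unnamed gene models were named after their values were seen. Alternatives changed the pseudocount to 0.1, the filter, the scaling, the model of the spread, the sex term, the libraries used and the experiment term. Promoter sequences came from the RefSeq table of build GRCm38.p6, a build other than that of the FPKM table, and were matched by gene symbol.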

Additional observations from a re-analysis of the deposited data

Results flagged for a closer look

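The change from hindbrain culture to tumor differed between K27M and WT-Tag for 15 named genes, by the interaction term of limma at an adjusted p under 0.05 (20 K27M tumors and 3 K27M cultures, against 9 WT-Tag tumors and 3 WT-Tag cultures). The log2 difference, K27M minus WT-Tag, was 2.80 for Lcat, 2.52 for S100b, 2.52 for Apoe, 2.36 for Nfasc and 2.08 for Mgll. For the unnamed models Gm10719 and Gm10715 it was 2.10 and 2.07. Negative differences were -2.84 for Dkk3, -2.58 for Fndc3c1, -2.19 for 4930583H14Rik, -2.07 for Htr3a, -2.0 for Cd97, -1.99 for Adamts3, -1.96 for Epha3 and -1.90 for Gpr30.

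Within the 9 WT-Tag tumors, 1 tumor stood apart from the others for 3 of these genes. The gap to the nearest tumor as a share of the whole range of FPKM was 0.647 for Gm10719, 0.633 for Gm10715 and 0.576 for Cd97. Each is past the 95% critical value of Dixon's test for 9 samples. With normally distributed values, chance passes that limit in about 1 in 20 groups. The values here were FPKM without a log scale, so that rate need not hold. The 3 genes were picked out of the 15 by this gap, so chance is not excluded. Whether Gm10719 and Gm10715 have sequence or reads in common was not examined.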

How the results depend on the processing

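For 199 results on single genes, 6960 combinations of gene and setting were tried. Of these, 6811 kept their side of the threshold, 98 fell short of it and 50 newly passed it. In 1 more, a gene changed sign and was called: Pdgfc, which was not called as deposited, fell by 0.42 after quantile normalization. Sign changes of genes called neither in the main fit nor in the alternative are counted within the 6811. The 50 were of genes given above as not passing, among them H3f3b, Ptch1, Cdkn2b, Irx2, Hey1 and Foxj1. Quantile normalization left 3257 genes higher against hindbrain cultures and 3221 against forebrain cultures, and 34 for the difference between K27M and WT-Tag. A 2-fold minimum left 2981 higher and 1817 lower. Without the filter on low FPKM, 7171 genes were lower against forebrain cultures and 928 passed the test of the difference. That test gave 41 genes with libraries rescaled to 1 common sum, 556 with a spread for each group and 10 with female libraries only. With the experiment as a replicate block, 70 genes passed, and the block changed no call of a named gene. Leaving out 1 library at a time gave 4095 to 5514 genes higher and 3334 to 4346 lower against hindbrain cultures, 4229 to 5732 higher and 3340 to 4291 lower against forebrain cultures, and 20 to 157 for the difference. The cause of these shifts was not tested. Absolute depth is unknown, 3 cultures bound the precision, and the culture spread is small beside that of the tumors.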
